A study of Mus musculus with 10 samples.

Results

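Amino acid transporter genes were followed in germinal vesicle oocytes of the mouse, the full-sized oocytes before meiosis resumes, in 6 samples from RNAi-transgenic mice and 4 samples from non-transgenic mice. The transgene makes RNA interference against basonuclin (Bnc1), a zinc finger gene of germ cells and keratinocytes, and per the study's design it acts only in oocytes, so the other cells of these mice keep the gene. The non-transgenic oocytes carry no such transgene. Each sample held total RNA of about 50 oocytes from 1 mouse on 1 oligonucleotide array. The sources used here do not give the strain or age of the mice, any hormone treatment, the transgene's promoter or the number of transgenic lines.

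The genes are those whose platform symbol is Slc1a, Slc3a, Slc6a, Slc7a, Slc36a, Slc38a or Slc43a followed by a number. Of 18193 genes with a named probe set, 58 matched, through 118 probe sets, and each gene is represented by the probe set with the highest mean over all 10 samples. A gene was tested where that probe set was above log2 5, an intensity of 32, in at least 4 samples. This held for 29 of the 58 genes, and for 10589 of all genes. A symbol with a letter after the number, such as Slc6a20b, falls outside the pattern, and not every gene inside it carries amino acids: Slc6a2, Slc6a3 and Slc6a4 carry monoamines and Slc6a8 carries creatine.

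Amino acids do not cross the plasma membrane by themselves, and each cell takes them up through a set of carriers with overlapping substrates. Some carriers are driven by the sodium gradient, others exchange 1 amino acid for another, and several Slc7 light chains reach the cell surface only when bound to a heavy chain of the Slc3 family. In the ovary the oocyte takes up some amino acids itself and receives others from cumulus cells through gap junctions. The glycine carrier Slc6a9 is known in mouse eggs and early embryos for taking up glycine as an osmolyte that holds cell volume, and betaine and taurine carriers serve the same purpose in other cells.

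The change in the transporter genes was uneven, and a few genes moved by several fold. Of the 19 tested genes that did not reach a limma adjusted p below 0.05, 12 had a log2 difference within 0.1 of zero. The taurine, betaine and GABA carriers Slc6a6, Slc6a12 and Slc6a13, the leucine carriers Slc43a1 and Slc43a2 and the cystine carrier Slc7a11 were higher in RNAi-transgenic oocytes. The lysosomal carriers Slc38a7 and Slc38a9, the serotonin carrier Slc6a4 and the cystine carrier light chain Slc7a9 were lower. The calls of Slc6a6, Slc7a9, Slc7a11, Slc38a9 and Slc38a7 were each lost in some refits, that of Slc38a7 in 15 of 25. A second Slc7a11 probe set differed by -0.05. Of the 29 tested genes, 6 were higher (limma adjusted p below 0.05), beside 18.9% of all tested genes, and 4 were lower, beside 18.3% of all tested genes. In either direction 34.5% of the tested transporter genes were called, against 37.2% of all tested genes, so the share is near the background. Slc6a13 counts among the 6 although it had to differ once tested, as described below with its values. Slc6a12 also passed the filter through the RNAi-transgenic samples, with 1 of 4 non-transgenic samples above the level. The median log2 change was 0.02 over the 29 genes and -0.03 over all 10589. In these bulk samples more cells of another type and more RNA per oocyte cannot be told apart.

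The genes Slc6a13 and Slc6a12 were among the 4 transporter genes called at least 2-fold higher, beside 6.63% of all tested genes. Both passed the filter through the RNAi-transgenic samples. They are direct neighbours on chromosome 6, with Slc6a13 before Slc6a12 and no protein-coding gene between them in RefSeq assembly GRCm38.p6. Their upstream sequences are shown because both genes rose together. Each is the 250 bases before the first start site that RefSeq lists for the gene, which is 1 of 3 start sites for Slc6a13 and 1 of 5 for Slc6a12. Both lie on the plus strand, at chr6:121300038-121300287 for Slc6a13 and at chr6:121342324-121342573 for Slc6a12. Capitals mark matches to a motif.
Slc6a13: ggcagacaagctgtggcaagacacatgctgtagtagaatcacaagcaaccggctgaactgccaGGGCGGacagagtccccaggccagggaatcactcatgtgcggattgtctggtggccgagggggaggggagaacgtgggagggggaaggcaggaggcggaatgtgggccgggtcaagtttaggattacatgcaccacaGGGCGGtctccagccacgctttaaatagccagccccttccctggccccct
Slc6a12: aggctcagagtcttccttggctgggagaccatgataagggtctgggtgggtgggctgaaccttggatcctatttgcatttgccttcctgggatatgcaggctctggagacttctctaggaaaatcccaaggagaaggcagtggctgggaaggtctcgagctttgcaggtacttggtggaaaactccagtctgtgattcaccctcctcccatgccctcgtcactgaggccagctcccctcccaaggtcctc

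Both strands were searched for 4 motifs, which did not overlap where they matched. The Slc6a13 window held GGGCGG, the GC box, at bases -187 to -182 and -50 to -45 from the start site, and this motif stood in 32.7% of the 32851 RefSeq windows of the same length. Neither window held TATAAA (12.4% of windows), TGATGNAA, a core of the element bound by ATF4 in amino acid response genes (3.45%), or CACGTG, an E box (6.02%), and the Slc6a12 window held none of the 4. The windows differed in composition, with 60.8% G and C and 9 CG dinucleotides for Slc6a13 and 55.6% and 2 for Slc6a12, where the median window had 52.4% and 6.

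The arrays had median intensities of 17.8 to 18.6 in RNAi-transgenic and 17.5 to 20.1 in non-transgenic samples. Bnc1 had a log2 value of 3.67 to 4.26 in the RNAi-transgenic samples and of 11.40 to 11.76 in the non-transgenic samples, so every sample matched its label. All 14 oocyte markers were above the filter level in every sample. Of these, 3 were called lower (Figla by 0.54, Dppa3 by 0.21 and Tle6 by 0.19), beside 18.3% of all tested genes. The 3′ probe set of Gapdh, a control gene of the array, was at log2 9.05 to 9.56 in RNAi-transgenic and 9.97 to 10.14 in non-transgenic samples, which did not overlap. Its 3′ minus 5′ difference, a sign of RNA and labelling quality, was 3.63 to 4.12 in RNAi-transgenic and 3.72 to 4.34 in non-transgenic samples. The same difference for actin was 5.13 in RNAi-transgenic replicate 6 and 3.40 to 4.01 in all others. Within the RNAi-transgenic group, replicates 12 and 13 deviated from the group mean together more than any other pair (Pearson r = 0.135 across named probe sets past the filter, which are not independent). Without both of them, 9 of the 10 calls among the transporter genes held and Slc38a7 lost its call (adjusted p = 0.151). Nothing beyond the 1 mouse per sample is said of how the samples were collected. The p-values measure the spread between these samples, in which differences between mice and between arrays cannot be told apart.

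**Figure D1:**
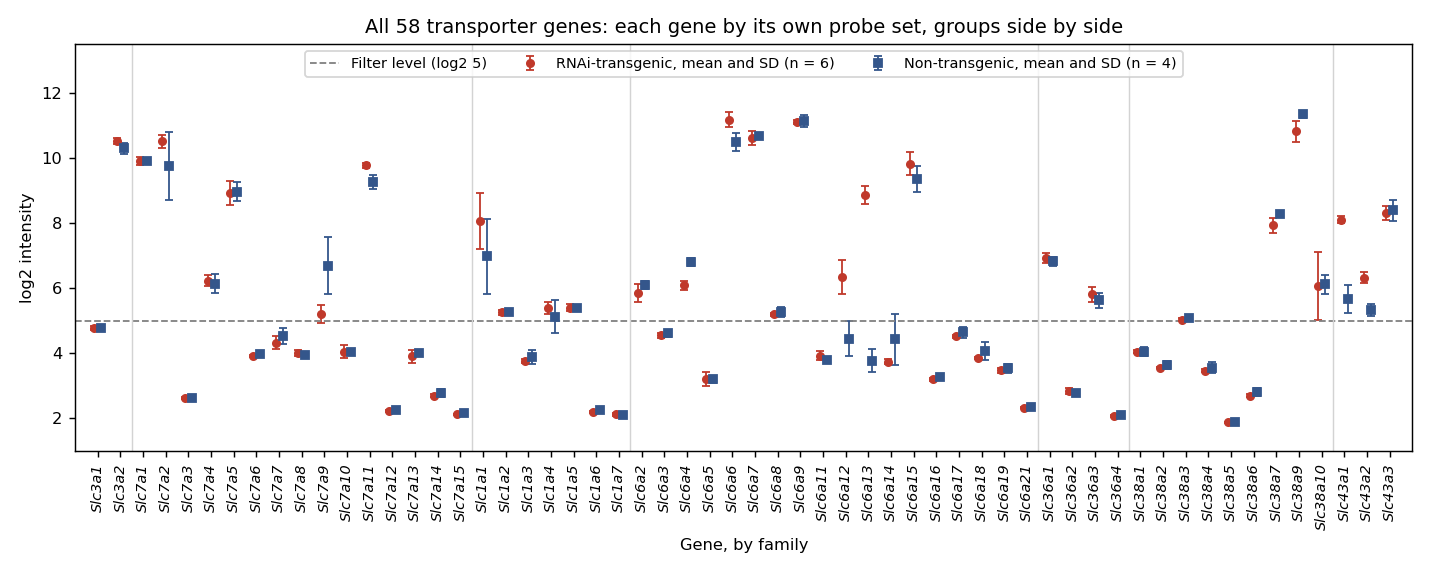
Log2 intensity of all 58 transporter genes, grouped by family, with the mean and SD of the 6 RNAi-transgenic samples (circles) left of those of the 4 non-transgenic samples (squares). The dashed line is the filter level of log2 5, and since probe sets differ in brightness only the 2 symbols of 1 gene can be compared. Slc6a13 lies at 8.87 in RNAi-transgenic and 3.76 in non-transgenic samples, on either side of the line.

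Slc6a13 encodes GAT2, a sodium-driven carrier of GABA, taurine and betaine. Its log2 value in the RNAi-transgenic samples ran from 8.51 through a median of 8.96 to 9.13, and in the non-transgenic samples it was 3.52, 4.15, 3.41 and 3.96. All RNAi-transgenic samples were bright and all non-transgenic samples lay below the filter level, with no overlap. Slc6a13 passed the filter only through the RNAi-transgenic samples, so it had to differ between the groups once it was tested, and no p-value is given in its support. Against the filter level Slc6a13 was at least 14.6-fold higher.

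Slc6a12 encodes BGT1, a carrier of betaine and GABA that kidney cells raise in hypertonic surroundings. The RNAi-transgenic samples ran from log2 5.76 through a median of 6.30 to 6.96, against 4.64, 4.20, 3.85 and 5.08 in the non-transgenic samples. The groups did not overlap, but only 1 of 4 non-transgenic samples exceeded the filter level. Slc6a12 thus passed the filter through the RNAi-transgenic samples, and no p-value is given in its support. Against that level Slc6a12 was at least 2.50-fold higher. The fitted log2 difference of 1.90 (SE 0.30) is larger because it uses the non-transgenic values below the level as they are. The protein-coding genes on the outer sides of this pair, Usp18 and Iqsec3, were below the filter and not tested, with means of 1.93 and 1.98 for Usp18 and 2.42 and 2.46 for Iqsec3 in RNAi-transgenic and non-transgenic samples.

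Slc6a6 encodes the taurine carrier TauT, which brings in taurine against its gradient. Its log2 value ran from 10.84 through 11.13 to 11.44 in the RNAi-transgenic samples, against 10.86, 10.37, 10.23 and 10.51 in the non-transgenic samples. The groups overlapped slightly, since the lowest RNAi-transgenic sample lay just under the highest non-transgenic one. The log2 difference was 0.69 (SE 0.14, limma adjusted p = 0.00311), a 1.61-fold increase. A second Slc6a6 probe set gave a log2 difference of 1.37 with means of 8.66 ± 0.13 (SD, n = 6) and 7.30 ± 0.24 (SD, n = 4) in RNAi-transgenic and non-transgenic samples (exact permutation p = 0.00476, the smallest that 210 splits of 6 and 4 samples allow), and a further dim one differed by 0.07 (exact permutation p = 0.519).

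Slc6a4, the serotonin carrier, changed the other way. It ran from log2 5.84 through 6.10 to 6.27 in the RNAi-transgenic samples and was at 6.69, 6.70, 6.93 and 6.87 in the non-transgenic samples. Every RNAi-transgenic sample lay below every non-transgenic one, and Slc6a4 fell by 0.71 on the log2 scale (SE 0.10, limma adjusted p = 0.000202).

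The glycine carrier gene Slc6a9 was not called. Its log2 value ran from 11.03 through 11.11 to 11.20 in the RNAi-transgenic samples, against 10.86, 11.14, 11.25 and 11.26 in the non-transgenic samples, so that the groups overlapped fully. The log2 difference was -0.02, with a 95% interval of -0.21 to 0.16 and a limma adjusted p of 0.845. A second Slc6a9 probe set differed by 0.15 (exact permutation p = 0.452).

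The other tested Slc6 genes were not called either. Slc6a7, a brain proline carrier, differed by -0.05 (95% interval -0.30 to 0.20), Slc6a8, the creatine carrier, by -0.06, and Slc6a2, the noradrenaline carrier, by -0.25 on the log2 scale. Slc6a2 was called when RNAi-transgenic replicate 6 was left out (limma adjusted p = 0.0277). Slc6a15, a carrier of branched-chain amino acids and proline, differed by 0.48 (limma adjusted p = 0.0979). It was called without non-transgenic replicate 7 (adjusted p = 0.0331) or without RNAi-transgenic replicate 6 (adjusted p = 0.0464). With the Gapdh 3′ minus 5′ difference as a covariate, the Slc6a15 difference was 0.16 (adjusted p = 0.622).

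**Figure D2:**
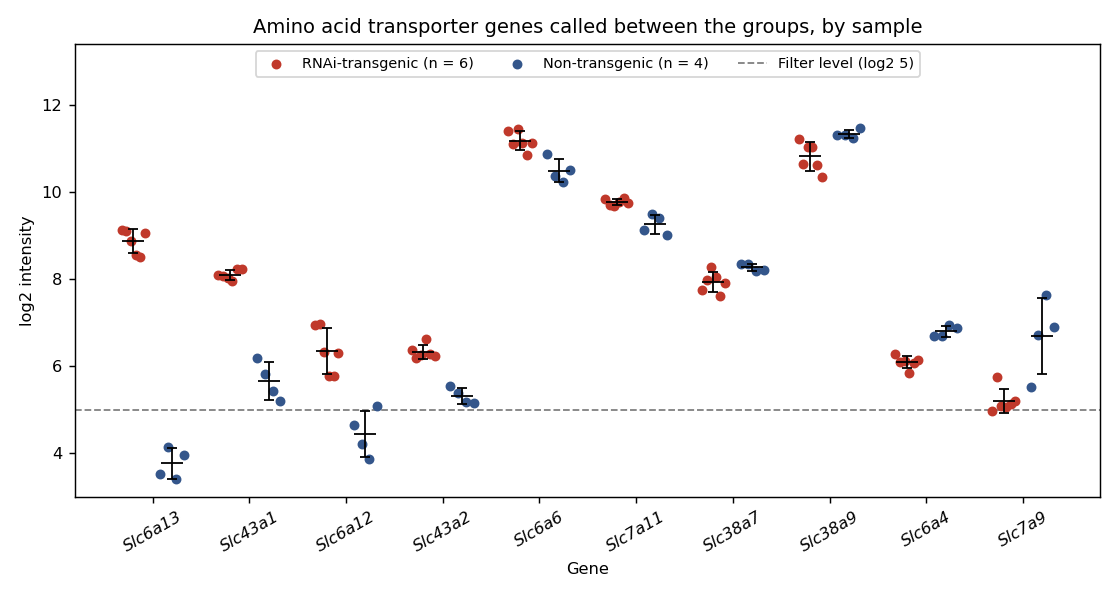
Log2 intensity in each sample of the 10 transporter genes with a limma adjusted p below 0.05, ordered by their log2 change, with the RNAi-transgenic samples (red, n = 6) left of the non-transgenic samples (blue, n = 4) and bars for the mean and SD. Slc6a13, Slc43a1, Slc6a12, Slc43a2, Slc7a11, Slc38a9 and Slc6a4 show no overlap between groups, while Slc6a6, Slc38a7 and Slc7a9 do overlap. For Slc6a13 and Slc6a12 this is no support, since both passed the filter through the RNAi-transgenic samples.

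The Slc43 family holds sodium-independent carriers of leucine and other large neutral amino acids, and 2 of its 3 members were higher, beside 18.9% of all tested genes. Slc43a1 (LAT3) ran from log2 7.95 through 8.09 to 8.23 in the RNAi-transgenic samples, against 6.18, 5.82, 5.42 and 5.21 in the non-transgenic samples. The gap between the groups was wider than the spread within either of them. Slc43a1 rose by 2.44 on the log2 scale (SE 0.17, limma adjusted p = 9.23e-07), which is 5.44-fold.

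Slc43a2 (LAT4) ran from log2 6.19 through 6.26 to 6.63 in the RNAi-transgenic samples, against 5.55, 5.37, 5.17 and 5.16 in the non-transgenic samples. Its groups did not overlap and it rose by 1.01 on the log2 scale (SE 0.11, limma adjusted p = 4.19e-05), which is 2.01-fold. Slc43a3, which carries purine nucleobases rather than amino acids, was not called, with means of 8.30 ± 0.22 (SD, n = 6) in RNAi-transgenic and 8.38 ± 0.33 (SD, n = 4) in non-transgenic samples (log2 difference -0.08, 95% interval -0.43 to 0.27). Slc43a3 lies near Slc43a1 on chromosome 2, with Rtn4rl2 between them.

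Among the exchangers built of a heavy and a light chain, Slc3a2, the heavy chain 4F2hc, ran from log2 10.40 through 10.52 to 10.64 in the RNAi-transgenic samples, against 10.12, 10.23, 10.51 and 10.32 in the non-transgenic samples. The groups overlapped only through non-transgenic replicate 7, and the log2 difference of 0.22 (SE 0.09) was not called (limma adjusted p = 0.0653). It was called after quantile normalization (adjusted p = 0.0432) and without non-transgenic replicate 7 (adjusted p = 0.0194).

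Slc7a11 (xCT), which with Slc3a2 exchanges cystine for glutamate and so supplies cysteine for glutathione, was higher. It ran from log2 9.68 through 9.76 to 9.87 in the RNAi-transgenic samples, against 9.13, 9.49, 9.40 and 9.02 in the non-transgenic samples. The groups did not overlap, with a log2 difference of 0.51 (SE 0.10, limma adjusted p = 0.00233), a 1.42-fold increase. A second Slc7a11 probe set did not show this, with means of 9.17 ± 0.40 (SD, n = 6) and 9.22 ± 0.34 (SD, n = 4) in RNAi-transgenic and non-transgenic samples (exact permutation p = 0.852). With the mean of both probe sets the call was lost (limma adjusted p = 0.197).

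Slc7a5 (LAT1), which pairs with Slc3a2 to take up leucine and other large neutral amino acids, was not called, with a log2 difference of -0.04 (95% interval -0.47 to 0.40, limma adjusted p = 0.908).

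Slc7a9, the light chain of the cystine and cationic amino acid carrier of kidney and gut, was lower. Its log2 value ran from 4.97 through 5.10 to 5.74 in the RNAi-transgenic samples, against 5.53, 6.71, 7.63 and 6.90 in the non-transgenic samples. All but 1 of the RNAi-transgenic samples sat close to the filter level, and the groups overlapped through RNAi-transgenic replicate 5 and non-transgenic replicate 1. Since 5 of 6 RNAi-transgenic samples were above the filter level, the decrease is given as at least 2.81-fold. The fitted log2 difference of Slc7a9 was -1.50 (SE 0.32, limma adjusted p = 0.00402). Its heavy chain gene, Slc3a1 (rBAT), was below the filter level in all samples, with means of 4.77 in RNAi-transgenic and 4.78 in non-transgenic samples.

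None of the tested cationic amino acid carriers was called. Slc7a1 (CAT1), which takes up arginine and lysine, differed by 0.00 on the log2 scale (95% interval -0.18 to 0.17), and Slc7a4, whose substrates are not settled, by 0.09. Slc7a2 (CAT2) ran from log2 10.24 through 10.49 to 10.84 in the RNAi-transgenic samples, against 8.18, 10.26, 10.32 and 10.20 in the non-transgenic samples. Non-transgenic replicate 1 stood far below the others. The log2 difference of 0.77 (limma adjusted p = 0.127) was 0.24 without non-transgenic replicate 1 (adjusted p = 0.132). The 3 further Slc7a2 probe sets past the filter differed by 0.27, -0.38 and -0.11 (exact permutation p = 0.195, 0.124 and 0.162).

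**Figure D3:**
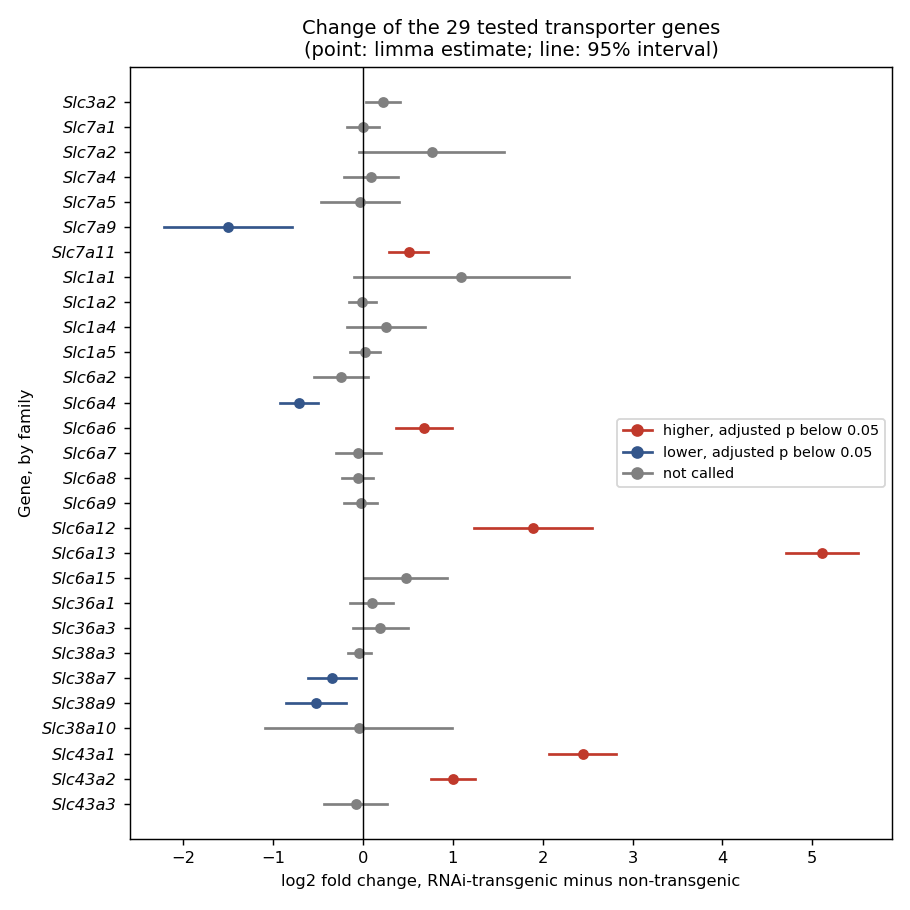
Log2 fold change, RNAi-transgenic minus non-transgenic, of the 29 tested transporter genes by family, with the limma estimate as a point and its 95% interval as a line. Red points are higher and blue points lower at an adjusted p below 0.05. Slc43a1 lies at 2.44 and Slc7a9 at -1.50. The Slc6a13 point, farthest to the right, is a fitted value against samples below the filter level.

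The Slc38 family carries glutamine and other small neutral amino acids, and 2 of its 4 tested members were called lower, beside 18.3% of all tested genes. Slc38a9, a lysosomal protein that reports arginine inside the lysosome to the growth kinase complex mTORC1, ran from log2 10.35 through 10.84 to 11.21 in the RNAi-transgenic samples, against 11.31, 11.32, 11.24 and 11.47 in the non-transgenic samples. The groups did not overlap, although the highest RNAi-transgenic sample came close to the non-transgenic ones. Slc38a9 fell by 0.52 on the log2 scale (SE 0.15, limma adjusted p = 0.0205). The call was lost without non-transgenic replicate 8 (adjusted p = 0.0578) with the mean of its 5 tested probe sets (adjusted p = 0.0978), and with the Gapdh 3′ minus 5′ difference as a covariate (adjusted p = 0.137).

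The probe set used for Slc38a9 carries the array maker's mark for probes that may match other sequences. A second probe set with that mark differed by -0.52 (exact permutation p = 0.0286). The 3 unmarked probe sets past the filter differed by -0.34, -0.44 and -0.04 (exact permutation p = 0.0619, 0.0238 and 0.895). Slc38a7, which exports glutamine from lysosomes, ran from log2 7.62 through 7.94 to 8.27 in the RNAi-transgenic samples, against 8.33, 8.34, 8.19 and 8.20 in the non-transgenic samples. The groups overlapped, and the decrease of 0.34 (SE 0.12, limma adjusted p = 0.0487) was called only narrowly. Leaving out 1 sample kept the call only when that sample was RNAi-transgenic replicate 6 (adjusted p = 0.0132), and the other leave-outs gave adjusted p from 0.056 to 0.111.

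Slc38a3, a glutamine and histidine carrier that is known from cumulus cells, stood at the filter level. It ran from log2 4.98 through 5.02 to 5.10 in the RNAi-transgenic samples, against 5.14, 5.10, 5.00 and 5.02 in the non-transgenic samples. These values form the faintest case just inside the filter, and no difference was called (limma adjusted p = 0.648). Just outside it, Slc6a14 was above the level in 1 non-transgenic sample (5.53) and at most at 3.82 in the RNAi-transgenic samples. Slc38a10, an orphan member found in many tissues, spread from 4.31 to 7.21 among RNAi-transgenic samples, and its difference of -0.04 has a 95% interval of -1.08 to 1.00.

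No tested Slc1 or Slc36 gene was called. Slc1a1 (EAAC1), which takes up glutamate, aspartate and cysteine, ran from log2 6.70 through 8.33 to 8.91 in the RNAi-transgenic samples, against 7.34, 5.66, 8.36 and 6.51 in the non-transgenic samples. Both groups were widely spread and overlapped. The log2 difference of 1.10 had a 95% interval of -0.10 to 2.29 (limma adjusted p = 0.138), and it was called in no refit but that without non-transgenic replicate 7 (log2 difference 1.56, adjusted p = 0.0408). Without non-transgenic replicate 2 the Slc1a1 difference was 0.66 (adjusted p = 0.378). A second Slc1a1 probe set differed by 0.86 (exact permutation p = 0.0714).

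The other tested Slc1 genes were dim. The glutamate carrier Slc1a2 and the neutral amino acid exchangers Slc1a4 and Slc1a5 (ASCT1 and ASCT2) lay between log2 4.43 and 5.63 in all samples and differed by 0.00, 0.26 and 0.02. Without non-transgenic replicate 8 the Slc1a4 difference was 0.03. Slc36a1 (PAT1), which moves small amino acids with protons out of lysosomes, differed by 0.10, and its testis relative Slc36a3 by 0.19.

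The 29 genes that were not tested make up 50% of the transporter genes, where 41.8% of all genes on the array were not tested. Of these, 28 were below log2 5 in all 10 samples, and the exception was Slc6a14. They were Slc3a1, the Slc7 genes Slc7a3, Slc7a6, Slc7a7, Slc7a8, Slc7a10, Slc7a12, Slc7a13, Slc7a14 and Slc7a15, the Slc1 genes Slc1a3, Slc1a6 and Slc1a7, the Slc6 genes Slc6a3, Slc6a5, Slc6a11, Slc6a14, Slc6a16, Slc6a17, Slc6a18, Slc6a19 and Slc6a21, and Slc36a2, Slc36a4, Slc38a1, Slc38a2, Slc38a4, Slc38a5 and Slc38a6. Their values ran from log2 1.85 to 5.53, and their group differences from -0.68 for Slc6a14 to 0.14 for Slc6a11. With no filter none of them was called, at adjusted p of 0.101 or higher. The log2 values of Slc38a1 and Slc38a2, the widespread glutamine carriers, averaged 4.05 and 3.55 in RNAi-transgenic and 4.04 and 3.64 in non-transgenic samples. A low value shows that these probe sets gave little signal, not that the genes are silent.

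**Figure D4:**
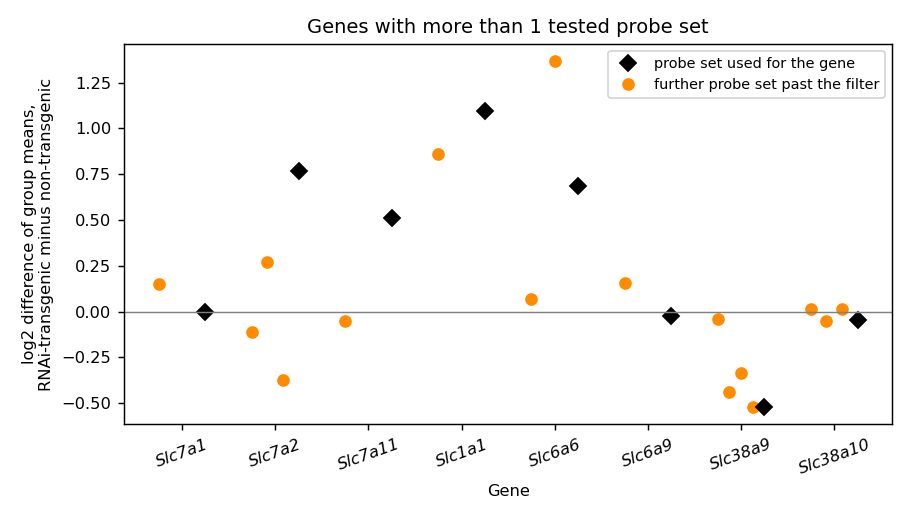
Difference of group means, RNAi-transgenic minus non-transgenic on the log2 scale, for every probe set past the filter in the 8 transporter genes that have more than 1, with the probe set used for the gene as a diamond and the others as circles. Slc38a9 and Slc6a6 have further probe sets on the same side of 0, while those of Slc7a2 and Slc7a11 fall on both sides.

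Counts by size and overlap put the few strong changes in proportion. Called and at least 2-fold, 4 transporter genes were higher (Slc6a13, Slc43a1, Slc6a12 and Slc43a2), beside 6.63% of all tested genes, and 1 was lower (Slc7a9), beside 2.35%. The groups did not overlap for 7 of the 29 tested genes, beside 28.0% of all tested genes. Slc6a13 and Slc6a12 are in both counts but passed the filter through the RNAi-transgenic samples, so their places there are no support. Of the 19 genes that were not called, 12 had a log2 difference within 0.1 of zero.

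The replicate numbers fall into 2 ranges, 1 to 6 and 7 to 13, each with both groups, though no label calls them batches. Slc43a1 differed by 2.06 within the lower range and by 2.82 within the upper, Slc43a2 by 0.80 and 1.21, Slc6a12 by 2.32 and 1.48 and Slc6a4 by -0.54 and -0.89, each past the threshold in both. For Slc6a12 this is no support, since it passed the filter through the RNAi-transgenic samples. Slc7a9 differed by -0.86 in the lower range, where it was not called (limma adjusted p = 0.206), and by -2.14 in the upper.

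Among the protein-coding genes next to the 10 called transporter genes, 13 that are no transporters of this set were tested and 5 of these were called, 38.5% beside the 37.2% of all tested genes. All 5 moved in the direction of the transporter beside them. The tested neighbours that were not called went both ways. Nsrp1, Lsm3, Grip2 and Ddx4 moved against the transporter beside them, and Cep89, Tdrd12, Noct and Pitpna moved with it. Timm10, a mitochondrial import chaperone, and Rtn4rl2, a Nogo receptor relative, flank Slc43a1 and changed by 0.89 (SE 0.14) and 0.50 (SE 0.14). Got2, the mitochondrial aspartate aminotransferase, lies next to Slc38a7 and fell by 0.49, Plpp1 next to Slc38a9 fell by 0.82, and Blmh next to Slc6a4 fell by 0.32. The neighbours were looked up after the transporter values were seen.

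Genes around amino acid transport were read from 5 lists, and their members moved in both directions. Among genes that sense amino acids for mTORC1, 5 of 29 tested were higher and 4 lower, beside 18.9% and 18.3% of all tested genes, with a median log2 change of -0.05. Sesn1, a leucine sensor relative that restrains mTORC1, rose by 1.99 (SE 0.13), Flcn, which activates the Rag GTPases, by 0.64 (SE 0.08) and Lamtor1, their lysosomal anchor, by 0.47 (SE 0.14). Nprl2 of the GATOR1 brake fell by 0.71 (SE 0.11), and Tsc1 of the tuberous sclerosis complex fell by 1.17 (SE 0.20). Its partner Tsc2 was above the filter level in 2 of 6 RNAi-transgenic samples and at least 1.41-fold lower.

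Of the genes of the response to amino acid shortage through GCN2 and ATF4, 4 of 19 tested were higher and 2 lower, beside 18.9% and 18.3% of all tested genes, with a median of 0.03. The lipoprotein receptor gene Vldlr rose by 4.03 (SE 0.15), the mTORC1 inhibitor gene Ddit4 by 1.07 (SE 0.07) and Shmt2, which makes glycine from serine in mitochondria, by 0.87 (SE 0.08). Atf4 itself fell by 0.28 (SE 0.09), and Cth, which makes cysteine from cystathionine, fell by 0.91 (SE 0.20). Slc7a11, Slc3a2 and Slc7a5 are known ATF4 targets in other cells, and their log2 differences above were 0.51, 0.22 and -0.04. The second probe set of Slc7a11 differed by -0.05, so its rise rests on 1 probe set.

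Enzymes of amino acid and glutathione metabolism gave 7 higher and 3 lower of 20 tested, beside 18.9% and 18.3% of all tested genes, with a median of 0.20. Gldc, which breaks down glycine in mitochondria, averaged 7.20 ± 0.15 (SD, n = 6) in RNAi-transgenic and 3.90 ± 0.17 (SD, n = 4) in non-transgenic samples, the second group lying wholly under the filter level, and was at least 4.59-fold higher. Like Slc6a13, Gldc passed the filter only through the RNAi-transgenic samples and had to differ once tested, so its place among the 7 is no support. Gclc, the catalytic subunit of the first enzyme of glutathione synthesis, rose by 1.21 (SE 0.11), while its modifier subunit Gclm fell by 0.51 (SE 0.09). The alanine aminotransferase gene Gpt2 rose by 1.01 (SE 0.11), and Got2 and the proline dehydrogenase gene Prodh fell by 0.49 and 0.35.

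Enzymes that make 2 substrates of the Slc6 carriers were picked out after their values were seen. Csad, which makes taurine, rose by 0.49 (SE 0.15, limma adjusted p = 0.0291), and Chdh, which oxidises choline towards betaine, rose by 0.52 (SE 0.12, limma adjusted p = 0.00632). Other enzymes of the same routes were not called: Cdo1, which acts before Csad, differed by 0.23 (limma adjusted p = 0.108), and Aldh7a1, which can act after Chdh, by -0.13 (limma adjusted p = 0.603). Among genes of cell volume and osmolytes, 1 of 11 tested was higher and 3 were lower, beside 18.9% and 18.3% of all tested genes, with a median of -0.11. Lrrc8d and Lrrc8e are subunits of the volume-regulated anion channel, and they moved in opposite directions, by 0.38 (SE 0.11) and -0.36 (SE 0.10). The kinase genes Wnk2 and Stk39, which act on chloride cotransporters, fell by 0.95 and 0.41.

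Other carriers of amino acids and peptides and their partner proteins gave 2 higher and 2 lower of 11 tested, beside 18.9% and 18.3% of all tested genes, with a median of -0.19. Slc15a4, a lysosomal carrier of histidine and dipeptides, rose by 0.61 (SE 0.11) and the aromatic amino acid carrier Slc16a10 by 0.54 (SE 0.14). Slc6a20b, a relative of the proline and betaine carrier SIT1, fell by 0.56 (SE 0.09). The peptide carrier gene Slc15a2 fell by 1.47 on the log2 scale (SE 0.50).

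**Figure D5:**
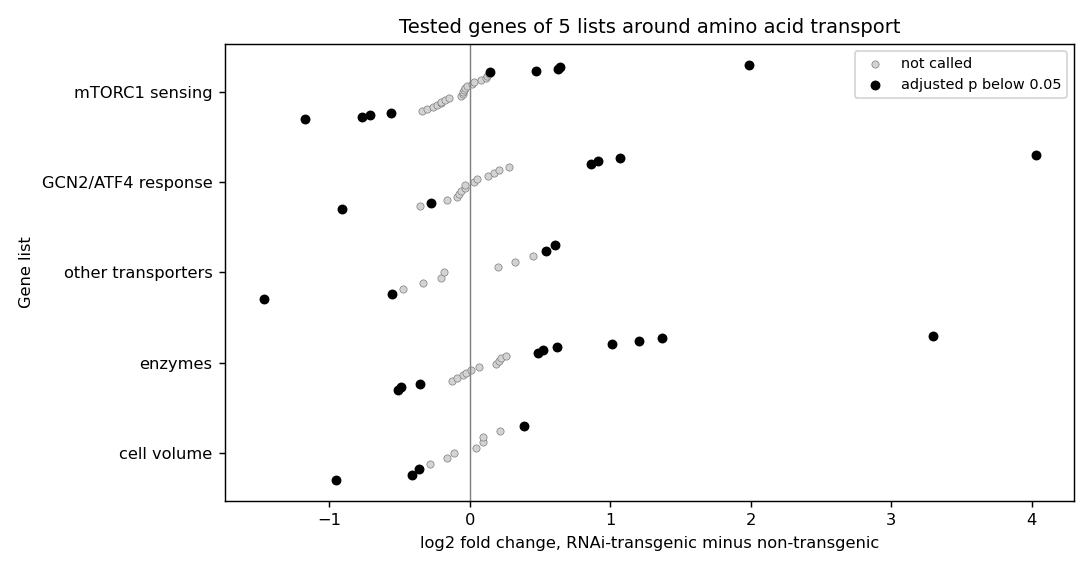
Log2 fold change, RNAi-transgenic minus non-transgenic, of each tested gene in 5 lists around amino acid transport, with genes at a limma adjusted p below 0.05 in black and the others in grey. Black points lie on both sides of 0 in every list, with Vldlr at 4.03 farthest to the right. The next point, Gldc, is a fitted value against samples below the filter level.

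Cells that surround the oocyte express many of these carriers too, so their markers were read in the same samples. Of 18 granulosa and cumulus markers on the array, 8 were tested, with a median log2 change of 0.55. Of these, 2 were higher and none lower, beside 18.9% and 18.3% of all tested genes. The higher ones were Fshr (log2 6.75 in RNAi-transgenic and 5.51 in non-transgenic samples) and Cyp11a1 (7.07 and 5.50). The summed intensity of this list ranged from 1795 to 2950 in RNAi-transgenic and from 1823 to 2066 in non-transgenic samples, and 9 markers, among them Amh, Amhr2, Has2 and Ptx3, were below the filter level in all samples. For stroma and vessels 12 markers were on the array and 6 were tested, with a median log2 change of 0.96. Of these, 4 were higher and 1 was lower, beside 18.9% and 18.3% of all tested genes. The sums ranged from 799 to 1074 in RNAi-transgenic and from 618 to 721 in non-transgenic samples, so they did not overlap.

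The higher stroma and vessel markers were Kdr, Col4a2, Dcn and Postn, the lower one was Acta2, and Pecam1, Cdh5, Pdgfra, Col1a2 and Col3a1 were below the filter level in all samples. Of 9 blood and immune markers, 3 were tested, with a median log2 change of 0.33. Laptm5 was higher and Srgn lower, beside 18.9% and 18.3% of all tested genes. The sums ranged from 2807 to 4470 in RNAi-transgenic and from 3408 to 4250 in non-transgenic samples. The red cell gene Hba-a1 and the leukocyte genes Ptprc, Cd52, Tyrobp, Lyz2 and Cd68 were below the filter level in all samples. The part of these cells in the transporter changes was not tested.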

How the data were processed

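Total RNA of about 50 oocytes per sample was measured on 10 arrays. The authors deposited 1 intensity per probe set and array, made with GCRMA per the submitters' processing notes (the sources used here give no version), a method that corrects background, normalizes between arrays and compresses differences of dim probes. The deposited intensity values carry no detection flag. Log2 values were taken from them with no further normalization. Of 45101 probe sets, 34945 had 1 gene and were used. The others were 932 with several genes, 9211 not listed in the platform annotation, of which 51 were controls, and 13 listed controls. Gene numbers matched all 58 transporter genes to RefSeq (GRCm38.p6).

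Groups were compared over 10589 genes with limma 3.58.1 (lmFit, eBayes with a trend) in R 4.3.3, with Benjamini-Hochberg adjustment over all of them. Log2 fold changes are RNAi-transgenic minus non-transgenic. Where samples of the dimmer group lay below log2 5 they were set to it, and the fold is given as "at least". Single values were compared by two-sided exact permutation tests. Named genes are every tested transporter gene and, in each list, the 3 higher and 3 lower genes with the smallest adjusted p, or fewer. The members and lists were chosen with earlier results of these data known. The number of arrays limits the precision. Upstream sequences are RefSeq's. Figures were drawn with matplotlib 3.10.9.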

Additional observations from a re-analysis of the deposited data

Results flagged for a closer look

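In each tested transporter gene and in Bnc1, the highest and the lowest sample of each group were compared with the rest of the group by the size of the gap. Of 60 groups examined, 4 held a sample far from the others, and chance alone flags about 5% of groups. Slc7a2 was at log2 8.18 in non-transgenic replicate 1, against 10.20 to 10.32 in the other non-transgenic samples. Slc7a9 was at 5.74 in RNAi-transgenic replicate 5, against 4.97 to 5.19 in the other RNAi-transgenic samples. The gene Slc7a4 was at 6.54 in RNAi-transgenic replicate 6, against 6.05 to 6.23. Slc1a5 was at 5.63 in RNAi-transgenic replicate 13, against 5.33 to 5.38.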

How the results depend on the processing

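No paired analysis was possible because the groups share no replicate number. Of the 10 called transporter genes, 5 (Slc6a13, Slc43a1, Slc6a12, Slc43a2 and Slc6a4) kept their call in every refit that tested them, 24 or 25 per gene. None of the 10 changed sign in any refit. The kept calls of Slc6a13 and Slc6a12 are no support, since both passed the filter through the RNAi-transgenic samples. Slc6a12, Slc43a2 and Slc6a4 were not tested with a filter at log2 7, and Slc6a4 is under 2-fold. The count of 10 called transporter genes was 6 with a filter at log2 7, where only 15 of the genes were tested, 5 among the samples numbered 1 to 6, and 5 with a threshold of at least 2-fold (Slc6a13, Slc43a1, Slc6a12, Slc43a2 and Slc7a9). It ranged from 8 to 12 when 1 sample was left out. The count of 3941 among all genes was 1913 within the samples numbered 1 to 6 and 2263 within those numbered 7 to 13, where fewer samples were compared, 2502 at an adjusted p below 0.01 and 951 with at least 2-fold. It ranged from 3383 to 3773 when 1 sample was left out. Besides the losses given with the genes, Slc38a7 (adjusted p = 0.246) lost its call with the Gapdh 3′ minus 5′ difference of each array as a covariate, an alternative chosen after seeing the data like the removal of replicates 12 and 13, and Slc7a4 gained one (0.0367). Slc6a6 (0.0572), Slc7a11 (0.108), Slc38a9 (0.232) and Slc38a7 (0.258) lost theirs among the samples numbered 1 to 6. Slc38a9 (0.0663) and Slc38a7 (0.189) lost theirs among those numbered 7 to 13, and Slc38a7 did with no filter (0.0736) and after median centring (0.0696). The causes were not tested. Of the 19 uncalled genes, 12 changed sign in at least 1 alternative and 14 were called in none. The median log2 change of all tested genes was -0.07 after quantile normalization and 0.01 after median centring.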
